A study of Mus musculus with 48 samples.

Results

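The genes described here are 32 mouse genes known as marks of the neurons of the cerebellum, of 47069 genes in the deposited count table. They were chosen by name, and each symbol matched 1 Ensembl identifier of the table. By what is known of them, 14 are called Purkinje genes (Pcp2, Car8, Itpr1, Ppp1r17, Gng13, Rora, Homer3, Skor2, Lhx1, Lhx5, Foxp2, Dner, Ebf2 and Klhl1). A further 13 are called granule cell genes (Cbln1, Cbln3, Neurod1, Zic1, Zic2, Zic4, Zic5, Pax6, Barhl1, Fat2, Tiam1, Chn2 and Mab21l1). The remaining 5 fall in neither class (Eomes, Gdf10, Cerkl, Uncx and Ebf3).

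RNA was sequenced from cerebellum, cortex and striatum of 16 mice, which gave 48 libraries. In each of the 3 regions, 8 libraries came from mice heterozygous for a deletion of 7qF3, the chromosome 7 segment syntenic to human 16p11.2, and 8 came from wild-type mice. All animals were on a mixed C57BL/6N:129Sv background, and each group held 4 males and 4 females. A date stands in the age field of the labels, with 1 split of the animals that is also the split by sex, and effects of the date and of sex cannot be told apart. Libraries are named here by genotype, D for deletion and W for wild type, and by the number of the animal.

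Purkinje cells are the large inhibitory neurons that carry the output of the cerebellar cortex, and their calcium signalling runs through metabotropic glutamate receptors and the inositol trisphosphate receptor Itpr1. Granule cells are the small excitatory neurons that send parallel fibres to Purkinje cells. They arise from the rhombic lip, which expresses Zic and Pax6 genes, and they secrete cerebellins that hold the parallel fibre synapse together. Several factors that specify these cells also act elsewhere in the brain, among them Foxp2 in striatal projection neurons and Zic1 and Zic4 in parts of the forebrain.

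RefSeq promoter windows are shown for members whose mean level stayed below 1 CPM, the count scaled by library size, in every forebrain group, so that nearly all their reads came from cerebellum. The members were Pcp2, Skor2, Cbln3, Barhl1 and Fat2. The start given for Fat2 lies 24307 bases from the GENCODE end of the gene, so its window is not shown, and Skor2 is named only. The windows shown lie on chromosomes 8 (Pcp2), 14 (Cbln3) and 2 (Barhl1), printed as chr8.0, chr14.0 and chr2.0. The start given for Cbln3 lies 136 bases inside the gene as annotated by GENCODE, so part of its printed stretch falls within that gene. The lines below give the 250 bases before the start closest to the GENCODE end, on build GRCm38.p6, 5′ to 3′ along the gene, with motif matches in capitals.
Pcp2 chr8.0:3625548-3625797, minus strand: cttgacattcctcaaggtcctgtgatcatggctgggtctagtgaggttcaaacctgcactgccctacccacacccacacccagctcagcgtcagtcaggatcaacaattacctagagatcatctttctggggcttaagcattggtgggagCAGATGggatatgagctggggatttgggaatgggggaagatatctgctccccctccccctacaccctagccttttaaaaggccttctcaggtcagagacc
Cbln3 chr14.0:55884257-55884506, minus strand: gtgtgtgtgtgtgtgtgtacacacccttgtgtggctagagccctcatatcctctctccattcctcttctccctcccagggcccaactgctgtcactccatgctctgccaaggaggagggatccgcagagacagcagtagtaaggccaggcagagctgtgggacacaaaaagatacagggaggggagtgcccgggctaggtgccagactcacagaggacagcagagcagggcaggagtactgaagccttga
Barhl1 chr2.0:28916669-28916918, minus strand: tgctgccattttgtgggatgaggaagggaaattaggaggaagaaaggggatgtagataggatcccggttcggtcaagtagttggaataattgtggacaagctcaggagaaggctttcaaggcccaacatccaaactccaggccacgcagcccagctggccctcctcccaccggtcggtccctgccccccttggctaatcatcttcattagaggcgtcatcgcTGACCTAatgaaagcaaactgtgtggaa
The capitals mark CAGATG, a proneural bHLH E box, in Pcp2 and TGACCTA, the reverse complement of the ROR motif TAGGTCA, in Barhl1. The start of these matches lay at -100 in Pcp2 and at -28 in Barhl1, counted from the annotated start. Windows of 300 bases, 50 of them after the start, were searched on both strands for 4 motifs, and 22 of the 32 members had a window in the RefSeq table. TAGGTCA was found in 1 of 22 members and in 2.97% of all genes, CAGATG in 4 of 22 and in 19.2%. TAATTA, a LIM homeodomain motif, was found in 4 of 22 members and in 6.12% of all genes, and the palindromic EBF motif in 0 of 22 and in 1.06%. A match is a stretch of letters and no evidence of binding.

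The deposited values are read counts per gene, and each library held between 29244745 and 60751792 of them. The summed level of 8 genes of the deleted interval lay between 896 and 1588 CPM in deletion cerebella and between 1629 and 2960.2 CPM in wild-type cerebella. It did not overlap between genotypes in cortex or striatum either, and 8, 7 and 8 of the 8 were called lower in cerebellum, cortex and striatum. Of the markers of the dissected regions, those of striatum gave a mean level of 4.32 to 9.15 in striatum libraries and 4.03 to 8.16 in cortex libraries (log2 of CPM plus 1), so these regions overlapped in them. Deletion and wild-type animals were separate mice by their numbers in the labels. In bulk tissue, fewer cells of a type and less RNA per cell cannot be told apart.

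Within the cerebellum, Gng13, a G protein gamma subunit, had the highest level per exon length. It averaged 312 ± 129 RPKM in deletion cerebella and 350.1 ± 123 RPKM in wild-type cerebella (SD, n = 8 each). Cbln1, Cbln3, Car8 and Pcp2 came next in wild-type cerebella, at 302 ± 75.7, 262 ± 89.5, 239.9 ± 57.8 and 231 ± 79.7 RPKM, and each of these 5 lay within 1 SD of its neighbour in the order. Itpr1, Ppp1r17, Chn2, Homer3 and Dner formed a second run between 106 and 122 RPKM in wild-type cerebella, again closer to each other than their SDs. Foxp2 averaged 0.581 ± 0.319 RPKM in deletion cerebella and 0.626 ± 0.237 RPKM in wild-type cerebella, and Ebf2 and Klhl1 also stayed near 1 RPKM.

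The first comparison asks how far the members set the cerebellum apart from the forebrain regions. In cerebellum against cortex, 31 of the 32 members were called higher, against 32% of the 18531 genes tested, and 28 of them by at least 4-fold, against 3.6% of all genes. In cerebellum against striatum 29 were called higher, against 30% of all genes, and 23 by at least 4-fold, against 3.13% of all genes. A member was called at an adjusted p under 0.05 by edgeR's quasi-likelihood test over all 48 libraries, and the members were chosen with earlier results of these data known. The filter on low counts was not passed by Pcp2, Ppp1r17, Skor2, Lhx1, Lhx5, Barhl1, Fat2, Eomes and Uncx within cortex. Pcp2, Skor2, Barhl1 and Fat2 did not pass it within striatum either. Their counts in another region carried them into this fit, so for them a higher call was largely set beforehand.

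Of the calcium signalling genes of Purkinje cells, Itpr1 itself was broadly expressed. It ran from 273 through a median of 1805 to 4120.4 CPM in cerebellum, from 203 through 398 to 919 CPM in cortex, and from 63.1 through 208 to 698 CPM in striatum. The ranges overlapped only through library D809, the lowest cerebellum library, since the next lowest cerebellum library held 962 CPM. The log2 fold change was 2.17 ± 0.32 (SE) over cortex and 2.83 ± 0.33 over striatum (edgeR, adjusted p = 9.24e-08 and 4.06e-10).

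Car8, a carbonic anhydrase-related protein that binds the Itpr1 receptor, was low in both forebrain regions. It ran from 174 through 923 to 1252 CPM in cerebellum, from 6.05 through 10.2 to 15.3 CPM in cortex and from 5.51 through 9.89 to 13.9 CPM in striatum. Every cerebellum library lay above every forebrain library, at log2 fold changes of 6.39 ± 0.20 over cortex and 6.53 ± 0.20 over striatum. Homer3, a scaffold that ties metabotropic glutamate receptors to the Itpr1 receptor, had a cerebellar median of 348 CPM, with medians of 9.85 CPM in cortex and 11.1 CPM in striatum. Its log2 fold changes were 4.85 ± 0.27 and 4.69 ± 0.26, and it did not overlap between cerebellum and either forebrain region.

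Pcp2, a regulator of G protein signalling in Purkinje cells, had the largest fitted fold change of the members in both comparisons, though that of Skor2 over cortex is bounded only from below. It ran from 131 through 363 to 637 CPM in cerebellum and reached at most 0.151 CPM in cortex and 0.226 CPM in striatum. Summed over 16 libraries each, 198520 reads in cerebellum stood against 36 in cortex and 51 in striatum. Scaled by the TMM library sizes of each region, these sums give a 5501-fold excess over cortex (95% exact interval 3973 to 7854) and a 4208-fold excess over striatum (3200.1 to 5651). The intervals cover counting error only. Exons of Pcp2 overlap those of Pet100 on the opposite strand, and exons of Gng13 and Homer3 overlap those of Chtf18 and Ddx49, and whether counting used strand is not given in the sources used here.

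Ppp1r17, a phosphatase inhibitor phosphorylated by cGMP-dependent kinase, was also low in the forebrain. Its median was 204 CPM in cerebellum, 0.231 CPM in cortex and 3.56 CPM in striatum, and the ranges of cortex (up to 1.24 CPM) and striatum (0.482 to 14.8 CPM) overlapped. The log2 fold change was 9.10 ± 0.47 over cortex and 5.37 ± 0.39 over striatum. Gng13 showed the reverse order of the forebrain regions, running from 109 through 262 to 383 CPM in cerebellum, from 15.9 through 45.2 to 73.7 CPM in cortex and from 6.38 through 15.6 to 33.3 CPM in striatum. Dner, a Notch ligand of Purkinje dendrites, was the least restricted of the highly expressed Purkinje genes, with medians of 500.5 CPM in cerebellum, 157 CPM in cortex and 223 CPM in striatum. Its log2 fold changes were 1.58 ± 0.13 and 1.19 ± 0.13, and its ranges overlapped, since D809 held 207 CPM against up to 271 CPM in cortex and 297 CPM in striatum.

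**Figure D1:**
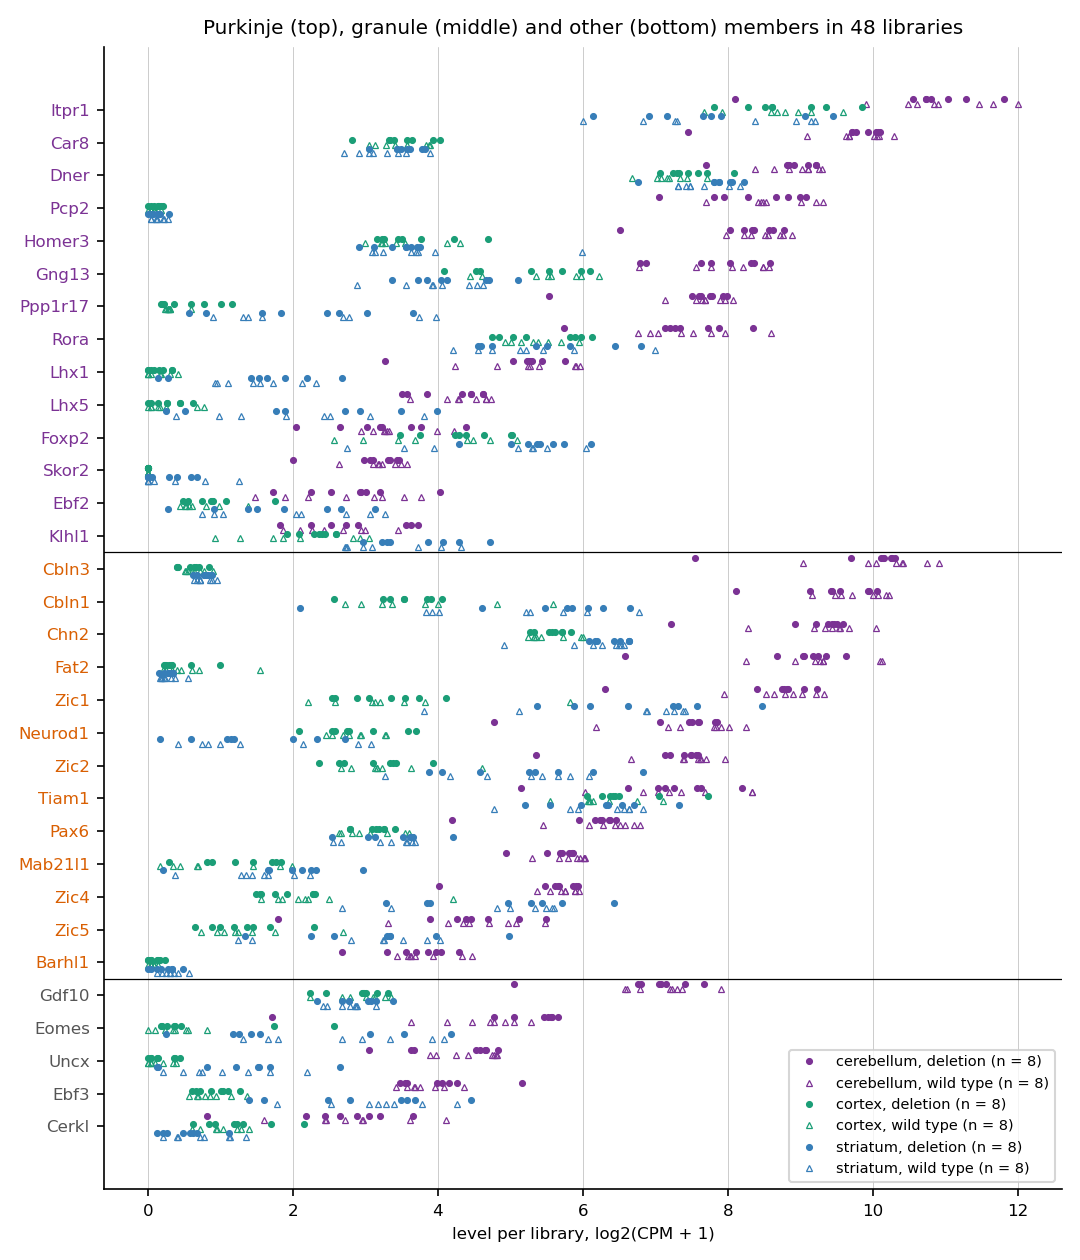
Level of each member in every library as log2(CPM + 1), with a row per gene and the Purkinje, granule and other members in blocks from top to bottom. Purple, green and blue points stand for cerebellum, cortex and striatum, filled circles for deletion and open triangles for wild type (n = 8 each); Pcp2, Cbln3 and Fat2 sit near 0 in both forebrain regions, while Foxp2 and Klhl1 do not.

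Among the transcription factors of the Purkinje class, Rora, the nuclear receptor that Purkinje cells need for maturation and survival, had medians of 162 CPM in cerebellum, 39.8 CPM in cortex and 37.9 CPM in striatum, with log2 fold changes of 2.12 ± 0.25 and 2.03 ± 0.26. Skor2, a corepressor of Purkinje differentiation, had a median of 8.27 CPM in cerebellum and no read in any cortex library. Its 4216 cerebellar reads set it at least 1402-fold above cortex, against a floor of 3 counts over the cortex group.

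Lhx1 and Lhx5, LIM homeodomain factors of early Purkinje cells, had cerebellar medians of 37.5 and 19.96 CPM and cortical medians of 0.0854 and 0.152 CPM. In striatum the medians were 1.91 and 3.56 CPM. Lhx5 overlapped there with cerebellum, since striatum library D804 reached 14.9 CPM and the lowest cerebellum library, D801, held 10.3 CPM, while Lhx1 did not. Ebf2, a helix-loop-helix factor of a Purkinje subset, was low everywhere, with medians of 6.67 CPM in cerebellum, 0.706 CPM in cortex and 2.90 CPM in striatum. Its excess over striatum was 0.96 ± 0.36 on the log2 scale (edgeR, adjusted p = 0.0194), and it was not called in the wild-type libraries alone (0.78, adjusted p = 0.208).

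Foxp2 went against its class in both comparisons, and Klhl1 only in that with striatum. Foxp2, a forkhead factor of Purkinje cells that is also known from striatal projection neurons and deep cortical layers, ran from 3.13 through 8.62 to 20.001 CPM in cerebellum. It ran from 4.94 through 19.3 to 33.0 CPM in cortex and from 5.71 through 38.6 to 68.0 CPM in striatum. It was called lower in cerebellum against both regions, as were 29.2% and 30.5% of all genes, at -0.93 ± 0.27 against cortex (edgeR, adjusted p = 0.00277) and -1.89 ± 0.27 against striatum (adjusted p = 8.44e-08). In the wild-type libraries alone the difference from cortex was -0.71 (adjusted p = 0.179).

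Klhl1, a kelch-like actin-binding protein of Purkinje cells, ran from 2.54 through 5.56 to 12.2 CPM in cerebellum, from 0.907 through 4.03 to 7.27 CPM in cortex and from 5.58 through 8.97 to 25.4 CPM in striatum. All ranges overlapped. It was called higher in cerebellum than in cortex (0.65 ± 0.25, edgeR, adjusted p = 0.0237) and lower than in striatum (-0.87 ± 0.25, adjusted p = 0.00278). Neither call held in the wild-type libraries alone (0.50, adjusted p = 0.319, and -0.86, adjusted p = 0.0796).

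All 13 granule cell genes were called higher in cerebellum than in cortex, against 32% of all genes tested. In cerebellum against striatum 12 were, all but Zic4, against 30% of all genes. Cbln3, which granule cells release together with Cbln1, ran from 187 through 1176 to 1925 CPM in cerebellum, and it reached at most 0.870 CPM in cortex and 0.932 CPM in striatum. Its log2 fold changes were 11.02 ± 0.24 and 10.62 ± 0.23 (edgeR, adjusted p = 1.34e-34 and 2.72e-34). Fat2, a giant cadherin of parallel fibres, behaved the same way, with a median of 597 CPM in cerebellum, 0.261 CPM in cortex and 0.212 CPM in striatum.

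Cbln1, the cerebellin that bridges presynaptic neurexin and the Purkinje receptor GluD2, was shared more widely than its partner Cbln3. It ran from 276 through 796 to 1195 CPM in cerebellum, from 4.90 through 10.6 to 47.3 CPM in cortex, and from 3.28 through 47.6 to 108 CPM in striatum. Cerebellum libraries lay above all forebrain libraries, at 5.95 ± 0.37 over cortex and 4.13 ± 0.34 over striatum on the log2 scale.

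Neurod1, a proneural helix-loop-helix factor that granule cells need to survive, had medians of 193 CPM in cerebellum, 5.83 CPM in cortex and 1.24 CPM in striatum. Its log2 fold changes were 4.83 ± 0.37 and 6.43 ± 0.41. Pax6, a paired-box factor of the rhombic lip, had medians of 78.8, 7.70 and 10.6 CPM in cerebellum, cortex and striatum. Its lowest cerebellum library, D809, held 17.3 CPM and fell inside the striatal range of 4.84 to 17.5 CPM. Barhl1, a homeodomain factor of the rhombic lip, had a cerebellar median of 11.9 CPM, with 29 reads in all cortex libraries and at most 0.486 CPM in a striatum library.

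Chn2, which turns off Rac, had medians of 690.3 CPM in cerebellum, 45.9 CPM in cortex and 85.9 CPM in striatum, and Tiam1, which activates Rac, had 148, 81.6 and 84.0 CPM. Tiam1 was the weakest of the granule cell genes against cortex, at 0.89 ± 0.23 on the log2 scale (edgeR, adjusted p = 0.00103), and its ranges overlapped in both comparisons. Mab21l1, a nucleotidyltransferase-fold protein, had medians of 55.7, 1.07 and 2.17 CPM, and its exons overlap those of Nbea on the opposite strand.

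The Zic genes, zinc finger factors of the rhombic lip, lie as divergent pairs, so each pair was also read as a ratio. Zic1 (chr9:91358058-91365810, minus strand) and Zic4 (chr9:91362413-91389348, plus strand) have overlapping exons on opposite strands. Zic2 (chr14:122475435-122479852, plus strand) and Zic5 (chr14:122456795-122465677, minus strand) do not overlap. All 4 were high in cerebellum, low in cortex and in between in striatum. Zic1 ran from 78.3 through 444 to 641 CPM in cerebellum, from 3.63 through 7.98 to 55.4 CPM in cortex and from 12.9999 through 129 to 355 CPM in striatum.

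Zic2 ran from 39.96 through 179 to 248 CPM in cerebellum, from 4.12 through 7.95 to 23.4 CPM in cortex and from 8.66 through 38.7 to 113 CPM in striatum. Zic1 was called higher by 5.33 ± 0.38 over cortex and by 1.83 ± 0.33 over striatum on the log2 scale, and Zic2 by 4.26 ± 0.29 and 2.03 ± 0.26. Zic5 had medians of 20.7 CPM in cerebellum, 1.34 CPM in cortex and 8.69 CPM in striatum, with log2 fold changes of 3.82 ± 0.39 and 1.40 ± 0.35. Zic4 ran from 15.2 through 51.8 to 60.4 CPM in cerebellum, from 1.82 through 2.99 to 17.5 CPM in cortex, and from 5.41 through 34.3 to 85.0 CPM in striatum. Against striatum it was not called, at 0.62 ± 0.28 (edgeR, adjusted p = 0.0531). It was called with the animal as replicate block (0.76, adjusted p = 0.0127) and with DESeq2 (0.61, adjusted p = 0.0456). It was also called without striatum library D810 (0.75, adjusted p = 0.0169) and without cerebellum library D809 (0.69, adjusted p = 0.0261).

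The ratio of Zic1 to Zic4 reads differed by region. It ran from 5.15 through a median of 8.65 to 10.995 in cerebellum, from 1.76 through 2.95 to 4.26 in cortex and from 2.401 through 3.82 to 5.06 in striatum. In all 16 animals it was higher in cerebellum than in either forebrain region, by 1.58 ± 0.46 over cortex and 1.15 ± 0.33 over striatum (mean log2 difference ± SD). The exact sign-flip permutation test over 16 animals gave 2-sided p = 3.05e-05 in both cases, the smallest it can give, and 6.1e-05 after adjustment over the 4 ratio comparisons. The ratio of Zic2 to Zic5 was higher in cerebellum in 13 of 16 animals in each comparison, by 0.50 ± 0.57 over cortex (exact permutation p = 0.00269) and 0.68 ± 0.61 over striatum (p = 0.000916, adjusted 0.00122). These ratios were chosen after the levels were seen.

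**Figure D2:**
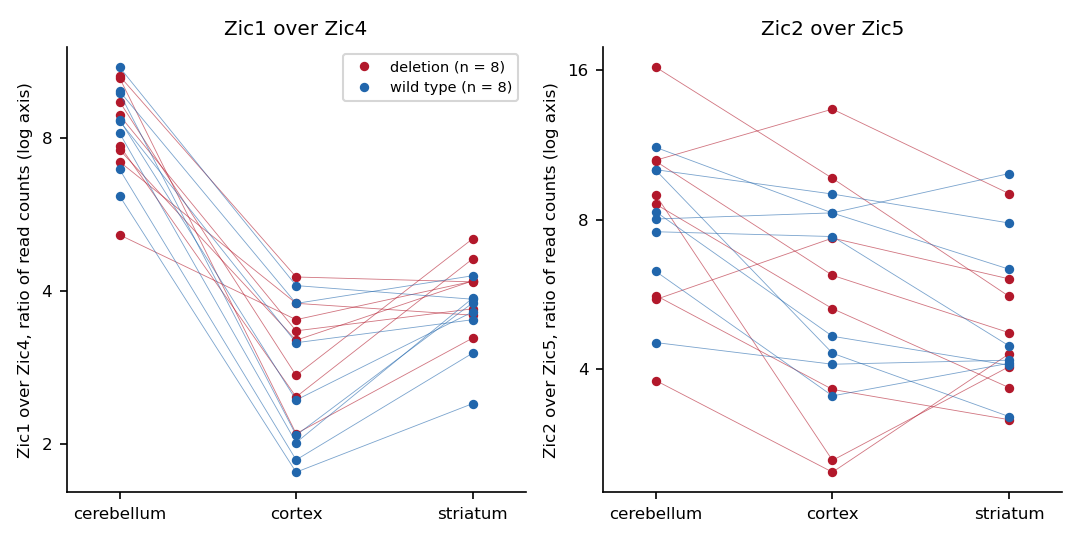
Ratio of read counts of Zic1 to Zic4 (left) and of Zic2 to Zic5 (right) in cerebellum, cortex and striatum on a log axis, with a line per animal, red for deletion and blue for wild type (n = 8 each). Every cerebellum ratio of Zic1 to Zic4 is at least 5.15, and the highest forebrain ratio is 5.06.

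Of the 5 members of neither class, all were called higher in cerebellum than in cortex and in striatum, against 32% and 30% of all genes. Gdf10, a growth factor of Bergmann glia, had medians of 138 CPM in cerebellum, 6.97 CPM in cortex and 6.09 CPM in striatum without overlap, at log2 fold changes of 4.34 ± 0.18 and 4.45 ± 0.18. Uncx, a paired-type homeodomain factor, had medians of 22.5, 0.0771 and 1.17 CPM, and it too did not overlap. Eomes, a T-box factor of unipolar brush cells, had medians of 30.7, 0.288 and 3.95 CPM. Its highest forebrain libraries, both from animal D810, held 4.93 CPM in cortex and 17.2 CPM in striatum, and cerebellum library D809 held 2.26 CPM. Striatum libraries W805 and W808 held 16.0 and 14.1 CPM, above the 11.4 CPM of cerebellum library W806.

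Ebf3, a relative of Ebf2, had medians of 13.52 CPM in cerebellum, 0.817 CPM in cortex and 8.38 CPM in striatum. Its excess over striatum of 0.76 ± 0.25 (edgeR, adjusted p = 0.00792) was not called in the wild-type libraries alone (0.60, adjusted p = 0.101). It was the member on chromosome 7 (chr7:137193673-137314445, minus strand, GRCm38), where the interval genes checked above end at position 127027037. Cerkl, a ceramide kinase-like gene, had medians of 5.96, 1.16 and 0.520 CPM. Its exons overlap those of Neurod1 on the same strand (chr2:79330543-79456785 for Cerkl), and Neurod1 averaged 74.6 ± 27.0 RPKM against 1.36 ± 0.859 RPKM for Cerkl in wild-type cerebella, so the values of Cerkl are uncertain.

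**Figure D3:**
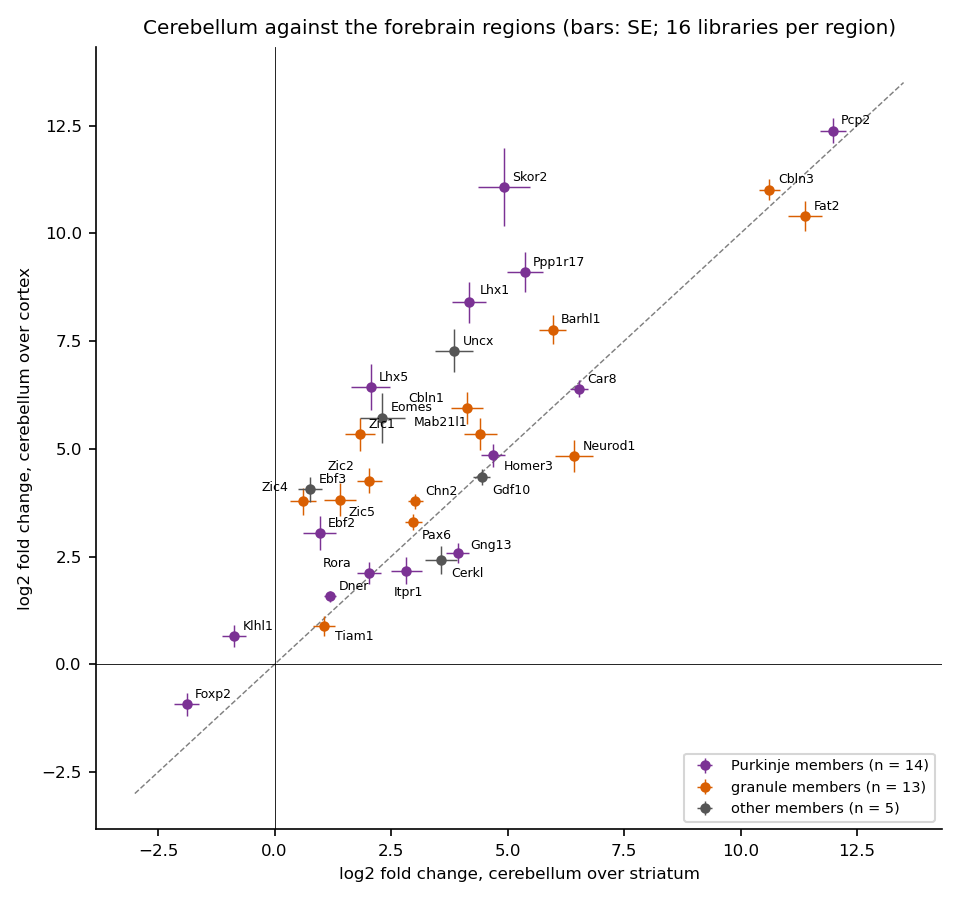
Log2 fold change of each member over cortex (vertical) and over striatum (horizontal), with SE bars and the line of equal values dashed (16 libraries per region). The Zic genes, Lhx1, Lhx5 and Skor2 lie above the line, Neurod1, Gng13 and Cerkl lie below it, and Foxp2 is below 0 on both axes.

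The median log2 fold change over cortex was 3.95 for the 14 Purkinje genes and 4.83 for the 13 granule cell genes, against 0.05 over all genes tested. Over striatum it was 3.38 and 3.02, against 0.01 over all genes. Library ranges did not overlap, with all 16 cerebellum libraries on top, for 8 Purkinje, 10 granule and 3 other members against cortex, where 5.35% of all genes had this property. Against striatum they numbered 7, 7 and 2, where 3.63% of all genes had it. Both comparisons share the cerebellum libraries. The counts include members that did not pass the filter on low counts within the forebrain region compared.

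Other known genes of the same cells were read beside the members. Of 16 further Purkinje genes, 13 were called higher in cerebellum than in cortex and 1 lower, against 32% and 29.2% of all genes tested. In cerebellum against striatum 15 were called higher, against 30% of all genes. The same shares of all genes apply to the granule cell counts that follow. Aldoc, the zebrin that marks Purkinje stripes and is also an astrocyte enzyme, was higher by 1.39 ± 0.11 over cortex and 1.44 ± 0.11 over striatum on the log2 scale. Pvalb, a calcium buffer shared with interneurons, was higher by 3.62 ± 0.28 and 4.999 ± 0.2995. Of 13 further granule cell genes 12 were tested, and 11 were called higher in each comparison, with Slc17a7, a vesicular glutamate transporter also of cortical neurons, called lower in cerebellum than in cortex (-1.45 ± 0.48, edgeR, adjusted p = 0.00772). Gabra6, the granule cell GABA receptor subunit, ran from 61.1 to 783 CPM in cerebellum and reached at most 0.153 CPM in cortex and 0.292 CPM in striatum. It did not pass the filter on low counts within cortex or striatum, so for Gabra6 a higher call was largely set beforehand.

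Single forebrain libraries carried part of the forebrain signal. Striatum library D810 was highest of all striatum libraries for 9 members, among them the 4 Zic genes, Eomes and Ebf3. It was also the striatum library whose thalamus marker level, 5.89, exceeded its striatum marker level, 5.12. Striatum library D811 had the highest thalamus marker level, 6.17, but was highest for 2 members and lowest for 3, with Eomes at 0.194 CPM and Lhx1 at 0.0971 CPM. Striatum libraries D801 and W813 were each lowest for 9 members, libraries at 0 reads not counted, and their thalamus marker levels of 3.06 and 3.53 were the lowest of the striatum libraries. These libraries were unlike in other markers. The striatum marker level was highest in D801, at 9.15, and lowest in W813, at 4.32, below the cortex marker level of 4.44 in W813. In cortex, library W815 was highest for the 4 Zic genes and for Pax6, and it had the highest thalamus marker level of the cortex libraries, 4.43. The part of neighbouring tissue in these values was not tested.

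Cerebellum library D809, from a deletion female, stood apart. Its Purkinje level, the mean log2(CPM + 1) over the 14 genes, was 5.12, against 6.42 to 6.72 in the other 7 deletion cerebella and 6.18 to 6.76 in wild-type cerebella. Its granule level was 5.28, against 6.99 to 7.57 and 6.57 to 7.86. Of the 32 members, 28 were lower in D809 than in all other deletion cerebella, and 27 were lower than in all 15 other cerebella. Across all 16672 genes tested in cerebellum, 5157 were lower in D809 than in all other deletion cerebella, and 5374 were higher. Among the 16 cerebella, D809 was lowest for 4099 of all genes tested.

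The loss in D809 was uneven between members. The log2 difference from the median of the other 7 deletion cerebella had a median of -1.46 for the Purkinje genes, -2.13 for the granule cell genes and 0.02 for all genes tested. Eomes was lower by the most, at 2.26 CPM against 26.3 to 49.5 CPM in the others. Klhl1 and Ebf3 went the other way, and Ebf3 stood at 34.9 CPM in D809 against 10.1 to 18.3 CPM.

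Markers of neighbouring tissue moved with these values. The summed level of 11 brainstem genes, most of them Hox genes, ran from 0.797 to 217 CPM in deletion cerebella, with the highest in D809, and from 0.296 to 64.9 CPM in wild-type cerebella. Of the 11, 10 were highest in D809, for example Hoxb5 at 75.6 CPM against a cerebellar median of 0.0779 CPM, and Hoxb6 was at 0 in 10 cerebella. Across all 16672 genes tested, 5374 were higher in D809 than in all other deletion cerebella. The 5 oligodendrocyte genes summed to between 4991 and 16272 CPM in deletion cerebella, with D809 on top, and between 2250.0 and 14279 CPM in wild-type cerebella, with W813 on top. W813 had the lowest granule level of the wild-type cerebella, 6.57, and the highest level of 11 choroid plexus genes, 6.13. The part of brainstem, white matter or choroid plexus in the members' values was not tested.

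**Figure D4:**
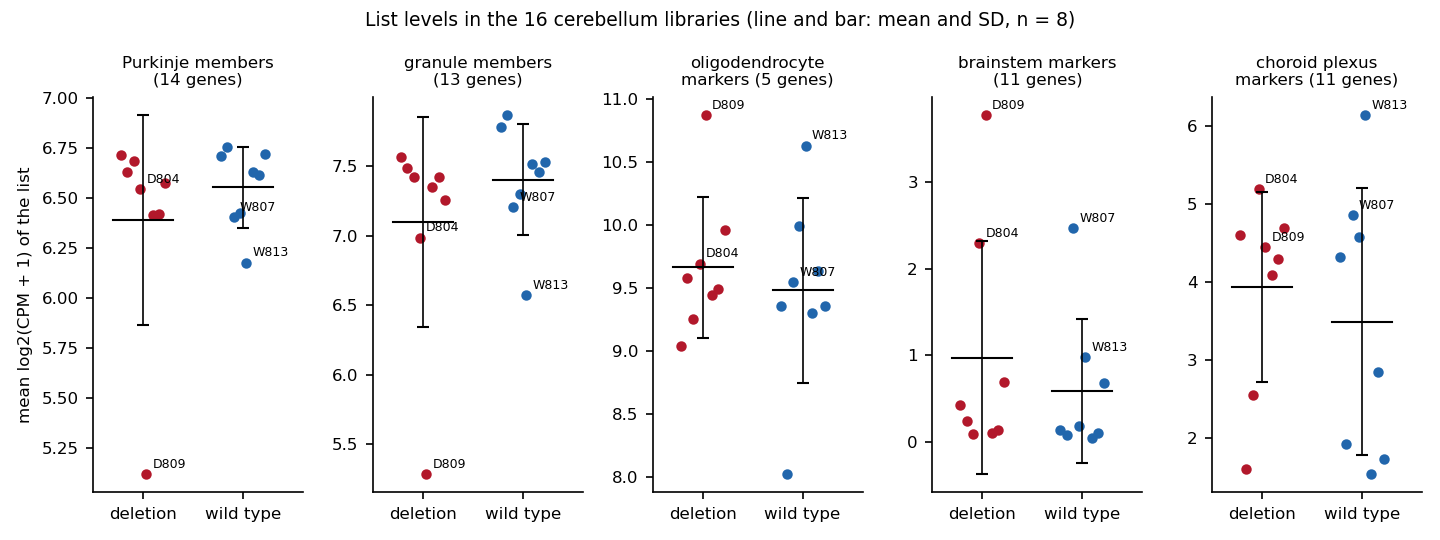
Mean log2(CPM + 1) of the Purkinje and granule members and of oligodendrocyte, brainstem and choroid plexus markers in each cerebellum library, with deletion (red) left of wild type (blue); lines and bars are the mean and SD (n = 8). The axes differ between panels and do not start at 0. D809 is lowest for both member classes and highest for oligodendrocyte and brainstem markers.

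The second comparison asks whether the deletion changed these genes. In cerebellum 0 of the 32 members were called between deletion and wild type, against 0.138% of the 16672 genes tested. DESeq2 called 0 as well, and 0 members had an unadjusted p under 0.05 in edgeR. Of the 32, 29 had a negative log2 fold change, with a median of -0.19 against -0.01 over all genes. The members were measured in the same libraries, so these signs are not independent. The deletion and wild-type libraries overlapped for each of the 32, and 0.114% of all genes had no overlap. Without D809 the median was -0.08, 24 of the 32 were negative, and 0 were called.

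The members of smallest p were Mab21l1, Cbln1, Ebf3, Fat2 and Pax6. Mab21l1 ran from 29.7 through 53.2 to 57.5 CPM in deletion cerebella and from 38.3 through 60.6 to 64.4 CPM in wild-type cerebella, a log2 fold change of -0.19 ± 0.14. Cbln1 ran from 276 through 719 to 1066 CPM in deletion cerebella and from 569 through 929.9 to 1195 CPM in wild-type cerebella, at -0.30 ± 0.24. For both the ranges overlapped over most of their length, and the unadjusted p-values were 0.186 and 0.227 (edgeR, adjusted p = 0.9997).

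Fat2 ran from 94.5 through 553 to 792 CPM in deletion cerebella and from 302 through 624 to 1112 CPM in wild-type cerebella, at -0.38 ± 0.31, and at -0.23 ± 0.22 without D809. Pax6 was at -0.30 ± 0.25, and at -0.15 ± 0.16 without D809. Ebf3 was at 0.29 ± 0.24 and at 0.05 ± 0.18 without D809, since that library was its highest. Leaving out D809 thus brought these estimates closer to 0.

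Eomes moved away from 0 instead. It ran from 2.26 through 44.2 to 49.5 CPM in deletion cerebella and from 11.4 through 25.9 to 38.0 CPM in wild-type cerebella. The log2 fold change was 0.48 ± 0.41, and 0.70 ± 0.23 without D809 (edgeR, unadjusted p = 0.00736, adjusted p = 0.9999), so it did not pass the test. The 7 other deletion cerebella held at least 26.3 CPM. Eomes is named here after its values were seen.

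The mean class levels of the cerebella overlapped between genotypes. The Purkinje level was 6.39 ± 0.53 in deletion cerebella and 6.55 ± 0.20 in wild-type cerebella (SD, n = 8 each), and 6.57 ± 0.12 in the deletion cerebella without D809. The granule level was 7.10 ± 0.75 in deletion cerebella and 7.402 ± 0.401 in wild-type cerebella, and 7.36 ± 0.19 without D809. The deletion minus wild type difference for the Purkinje genes was -0.17 with and 0.02 without D809, and for the granule cell genes -0.31 and -0.05. The gap between the classes within a library, Purkinje minus granule level, was -0.71 ± 0.28 in deletion cerebella and -0.85 ± 0.22 in wild-type cerebella, and -0.79 ± 0.19 without D809.

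**Figure D5:**
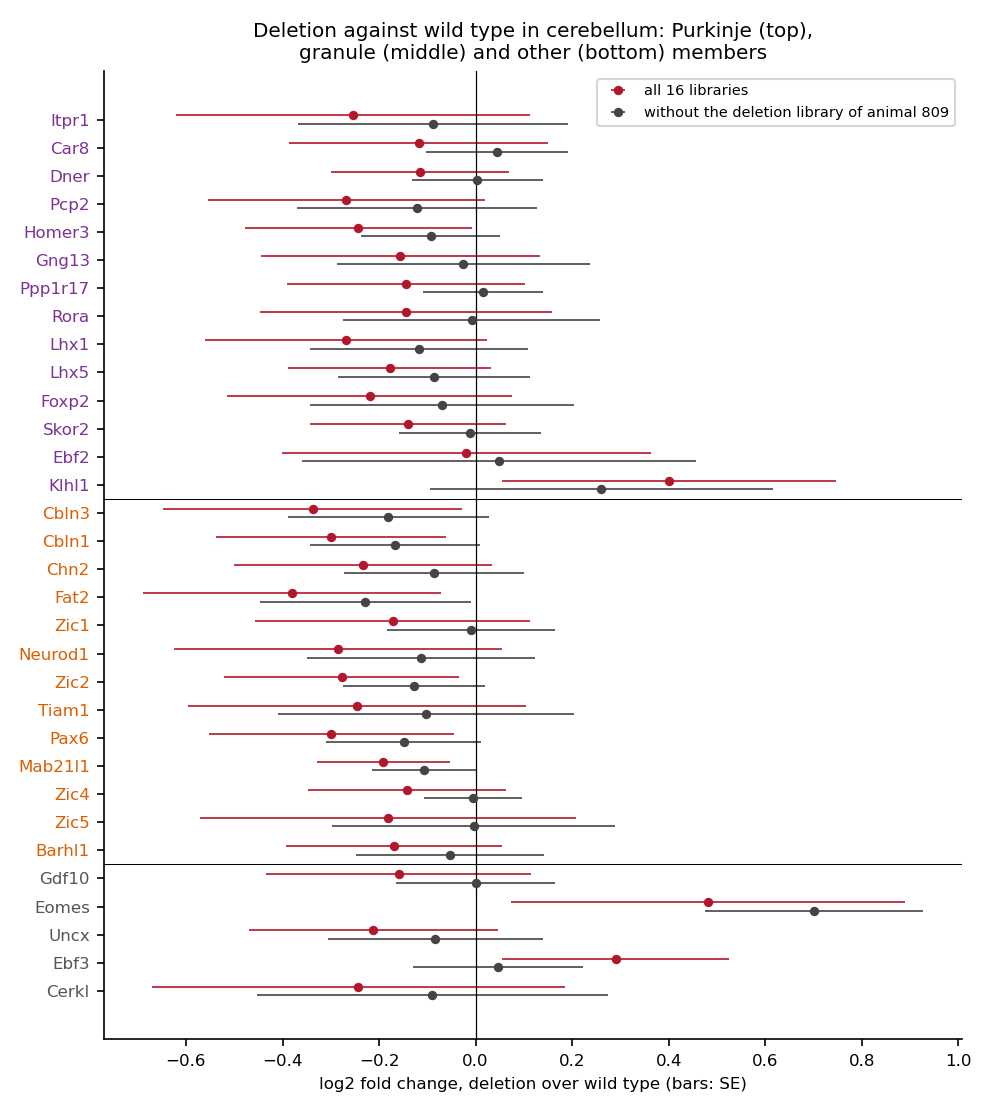
Log2 fold change, deletion over wild type in cerebellum, for each member with SE bars, from all 16 libraries (red) and without library D809 (grey). The granule members are all below 0 in both fits, at medians of -0.25 and -0.11, and Eomes is the largest estimate in both.

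Of the 16 further Purkinje genes and 12 further granule cell genes tested in cerebellum, 0 were called between deletion and wild type, and 0 and 1 had an unadjusted p under 0.05 in edgeR. Negative log2 fold changes were seen for 14 of the 16 and 12 of the 12, with medians of -0.22 and -0.21, and -0.11 and -0.10 without D809. The mean level of each list was lowest of the cerebella in D809, at 6.37 and 5.51. The genes were measured in the same libraries, so these signs are not independent. The lowest were Calb2 at -0.56 ± 0.23, Itpka at -0.43 ± 0.23 and Grin2c at -0.39 ± 0.24, named after their values were seen. Of the 2 most abundant genes of each list, Aldoc was at -0.03 ± 0.14 and Pvalb at 0.03 ± 0.23 on the log2 scale. Kcnc1, a potassium channel of fast-spiking neurons, was at -0.17 ± 0.15, and Gabra6 was at -0.18 ± 0.34.

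In the forebrain regions 0 members were called either, at 23 members tested in cortex, where 0.13% of all genes were called, and 28 in striatum, where 0.128% were. Members that did not pass the filter on low counts were Pcp2, Ppp1r17, Skor2, Lhx1, Lhx5, Barhl1, Fat2, Eomes and Uncx in cortex and Pcp2, Skor2, Barhl1 and Fat2 in striatum. In cortex the smallest p-values belonged to Dner, Zic4, Cbln1, Cerkl and Tiam1. Dner ran from 133 through 166 to 271 CPM in deletion cortex and from 101 through 143 to 208 CPM in wild-type cortex, at 0.27 ± 0.16. Zic4 was at -0.67 ± 0.39, with a highest value of 3.94 CPM in deletion cortex and 17.5 CPM, in W815, in wild-type cortex. Cbln1 was at -0.62 ± 0.42, Cerkl at 0.50 ± 0.35 and Tiam1 at 0.36 ± 0.26 (edgeR, adjusted p = 0.965 for all 5).

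In striatum the smallest p-values belonged to Cerkl, Car8, Homer3, Mab21l1 and Klhl1. Cerkl ran from 0.0890 through 0.449 to 1.16 CPM in deletion striatum and from 0.1503 through 0.678 to 1.55 CPM in wild-type striatum, at -0.72 ± 0.36. Car8 was at 0.27 ± 0.16, Mab21l1 at 0.73 ± 0.50 and Klhl1 at 0.44 ± 0.33. Homer3 was at -0.67 ± 0.40, with a highest value of 12.4 CPM in deletion striatum and of 62.7 CPM, in W813, in wild-type striatum. None of the 5 passed the test in edgeR, at an adjusted p of 1.0, and DESeq2 called 0 members in either forebrain region.

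Differences of the deletion effect between regions were tested directly over all 48 libraries. Neither cerebellum minus cortex nor cerebellum minus striatum gave a called gene, so 0% of all genes were called in each. An unadjusted p under 0.05 was seen for 0 members, against 234 and 313 of the 18531 genes tested. Small p-values were thus rare over all genes in these fits. DESeq2 called 0 genes in both. The difference of the deletion effect between females and males in cerebellum gave 0% called genes too, in edgeR and in DESeq2. It gave 93 of the 16672 genes tested at an unadjusted p under 0.05. Foxp2 was among these, at -1.15 ± 0.52 (female minus male, unadjusted p = 0.0429, edgeR adjusted p = 0.9999). Library D809, from a deletion female, held the lowest Foxp2 level of the cerebella, 3.13 CPM. Between females and males in cerebellum 0.042% of all genes were called and 0 members, with an unadjusted p under 0.05 for 0 members, a median log2 fold change of -0.27 (-0.14 without D809) and 0 members called by DESeq2.

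The members varied between animals along gene length. The 10 members that span over 100 kb (Itpr1, Rora, Foxp2, Dner, Ebf2, Klhl1, Tiam1, Chn2, Cerkl and Ebf3) were raised together in cerebellum libraries D801 and W805, by medians of 0.98 and 0.89 on the log2 scale relative to each gene's median over 16 cerebella. The 14 members under 10 kb stood at -0.10 and 0.04 in the same libraries, and Gng13 and Pcp2 had their lowest wild-type values in W805. The gap between long and short members was 1.08 in D801 and 0.85 in W805, and between -0.27 and 0.54 in the other 14 cerebella. Over all genes tested the same gap was 0.71 in D801 and 0.67 in W805, the highest of the 16, so it was not particular to these genes. RNA quality was not analysed here.

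The members also differed in their spread between wild-type cerebella. Zic4 had the smallest SD of log2(CPM + 1) over 8 wild-type cerebella, 0.19, and Mab21l1 followed at 0.25. Ebf2 had the largest at 0.82, followed by Tiam1 at 0.78, Cerkl at 0.77 and Itpr1 at 0.69. Ebf2, Tiam1, Cerkl and Itpr1 all span over 100 kb. So do Dner, which spans 326.4 kb and had an SD of 0.32, and Ebf3, which had one of 0.30. The short Zic5 and Neurod1 each had one of 0.66. A relation of spread to length was not tested.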

How the data were processed

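The authors deposited 1 table of read counts per gene, whole numbers that were not normalised, for 48 libraries; the kit kept strand, per the labels' protocols. The aligner named is STAR 2.4.2a, beside SAMtools, Picard and FastQC 0.10.1, per the submitters' processing notes, which also list builds GRCm38 and mm8 without a role. How reads were assigned to genes, and by strand or not, is not given in the sources used here. In all the table held 47161 features, of which 92 spike-in controls were left out.

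Groups came from the labels. Counts were tested with edgeR 4.0.16 (TMM scaling, filterByExpr, robust quasi-likelihood fit, Benjamini-Hochberg adjustment over all genes tested, threshold 0.05) in R 4.3.3. Regions and differences of the deletion effect were fitted over all 48 libraries with sex as a covariate, and deletion against wild type within each region. DESeq2 1.42.0, no filter on low counts, the animal as replicate block, each animal left out and single sexes were alternatives. Levels are CPM on TMM-scaled library sizes, class levels the mean of log2(CPM + 1), and RPKM divides by the union of exons in GENCODE vM21. Regions of 1 animal share a number in the labels, and the deviations of same-animal libraries correlated at a median of 0.491 between cerebellum and cortex, 0.240 between cerebellum and striatum and 0.402 between cortex and striatum. Scripts were tested on simulated data.

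Between 29331296 and 34417630 gene counts per cerebellum library set the precision. The exact intervals pool the reads of 16 libraries per region, so they cover counting error only and not the spread between animals. PCR copies of a molecule cannot be recognised without molecular identifiers, so counting error may be larger than the intervals give. The p-values of tests within a region measure the spread between these animals. The main fits across regions took libraries of the same animal as independent, although their deviations correlated. Their p-values thus mix the spread within and between animals, and only the fit with the animal as replicate block takes the pairing into account. No 2 libraries of a group agreed within sampling noise (lowest chi-square per gene 17.9 over 168 pairs). The members and lists were chosen with earlier results of these data known. Values are given for the most abundant members of each class, the 5 of neither class, those not called higher in cerebellum and those above 10 CPM in a forebrain region, and in each deletion comparison for the 5 of smallest p.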

Additional observations from a re-analysis of the deposited data

Results flagged for a closer look

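A library was marked where its gap to the nearest library of its group of 8 exceeded Dixon's critical value, on the log2(CPM + 1) scale and for members averaging at least 10 CPM. Of 122 groups of values 29 were marked, and chance flags about 1 in 20 groups; 23 of the 29 fell on 1 library, cerebellum D809, so they are not independent.

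D809 was marked as low for the Purkinje genes Car8 (174.1 CPM), Itpr1 (272.8 CPM), Ppp1r17 (45.49 CPM), Rora (52.28 CPM), Homer3 (90.12 CPM), Lhx1 (8.66 CPM) and Dner (207.3 CPM). It was low for the granule cell genes Cbln3 (186.5 CPM), Neurod1 (26.26 CPM), Zic1 (78.29 CPM), Zic2 (39.96 CPM), Zic4 (15.2 CPM), Zic5 (2.469 CPM), Pax6 (17.25 CPM), Fat2 (94.46 CPM), Chn2 (147.9 CPM) and Mab21l1 (29.67 CPM). Eomes (2.261 CPM) and Gdf10 (32.21 CPM) were low in it too, and Ebf3 (34.92 CPM) was high. Its class levels of 5.117 for Purkinje, 5.282 for granule and 3.159 for the other members were also marked.

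The remaining marks fell on libraries of other tissue or genotype. In wild-type striatum W813, Homer3 was high at 62.67 CPM against 7.52 to 14.5 CPM in the other 7, and Chn2 was low at 28.98 CPM against 57.6 to 93.4 CPM. In deletion striatum D801, Dner was low at 107.1 CPM against 223 to 297 CPM, and Cbln1 was low at 3.28 CPM against 23.4 to 99.3 CPM. In wild-type cortex W815, Zic1 was high at 55.39 CPM against 3.63 to 13.1 CPM. In wild-type cerebellum W813, Zic2 was low at 100.2 CPM against 165 to 248 CPM.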

How the results depend on the processing

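The count of members called higher in cerebellum was 30 to 31 against cortex and 27 to 30 against striatum over the alternatives run, the lowest against striatum with wild-type libraries alone. With the animal as replicate block, a paired fit, it was 31 against cortex and 30 against striatum, the added call being Zic4. The count of members called between deletion and wild type was 0 in each region under every alternative run, each animal left out in turn included. Leaving out 1 animal set the deletion minus wild type difference in cerebellum between -0.22 and 0.02 for the Purkinje level and between -0.42 and -0.05 for the granule level, in both cases nearest 0 without D809. Of the single members, 4 values moved past the threshold and 5 moved short of it, all in the region comparisons and given above. Leaving D809 out of the 48-library fits, leaving out the 3 cerebella of highest brainstem marker level together, and the class levels were chosen after seeing the data. Depth limits members near 0 reads in the forebrain, of which 9 in cortex and 4 in striatum did not pass the filter on low counts; 0 were called without that filter.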
